A study of Mus musculus with 6 samples.

Results

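The integrin subunits described here are 10 genes, the alpha chains Itgal, Itgam, Itgae, Itga4, Itga6 and Itgav and the beta chains Itgb1, Itgb2, Itgb3 and Itgb7. They were chosen by gene symbol from the 52550 genes of each file, and 11 rows carried these symbols, because 2 rows bear the symbol Itgam. All 10 genes passed the filter on low values and were among the 15265 tested. The cells were splenic plasmacytoid dendritic cells from C57BL/6 mice, kept in culture for 12 hours. For 3 libraries the cells were given R837, also called imiquimod, which stimulates the endosomal receptor TLR7, and for 3 libraries R837 together with taurine, an amino sulfonic acid. The 6 libraries include none without R837, so no change here is set against the response to R837 itself. The comparison asks how the transcripts of cells stimulated through TLR7 differ when taurine is present.

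Integrins are adhesion receptors built from 1 alpha and 1 beta chain. Talin and kindlin bind the tail of the beta chain inside the cell and switch the receptor to a form that holds its ligand. On leukocytes, Itgb2 pairs with Itgal (LFA-1), Itgam (Mac-1) and Itgax to bind ICAM proteins and complement fragments. Itga4 pairs with Itgb1 to bind VCAM1 and fibronectin, and with Itgb7 to bind MADCAM1 in gut vessels, while Itgae with Itgb7 binds E-cadherin. Itga6 with Itgb1 is a laminin receptor, and Itgav with Itgb3 binds vitronectin and other proteins that carry an RGD sequence.

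The libraries held between 33585080 and 38392654 reads on genes, of which 57476 to 73783 lay on the rows with a member symbol. Levels are normalized counts, which are reads divided by 1 size factor per library. All 14 listed markers of plasmacytoid dendritic cells were tested, with a summed level of 426962 to 464158 in the R837 libraries and 451777 to 465994 in the taurine libraries. Of these 14, Bst2 and Cox6a2 were called higher and Tcf4, Runx2, Pacsin1 and Klk1 lower, against 3.75% and 2.66% of all tested genes. Of 9 T cell markers Cd3d and Cd3g were listed at 0 in every library, while the list summed to 5577 to 6142 and 6619 to 6775, most of it Tcf7. Of 7 NK cell markers Gzma, Prf1 and Klra8 were listed at 0, and the sum was 52.1 to 79.3 and 29.7 to 62.8. Transcripts of B cells were present, with a summed marker level of 73539 to 76952 and 80856 to 83940, most of it Ighm. A change is the taurine mean minus the mean without taurine of log2(normalized count + 1). A gene was called where limma's p, adjusted over the whole set of tested genes, lay under 0.05. Each change is given with its standard error (SE) or 95% interval. No source says whether the replicates are separate animals or cultures, and the p-values therefore measure only the spread between these libraries.

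Both rows with the symbol Itgam start at the same promoter, and their sequences are shown because they bear on how the Itgam values can be read. The row ENSMUSG00000030786.18 is Itgam (chromosome 7, 128062640 to 128118491, plus strand). The row ENSMUSG00000108596.1 (chromosome 7, 128062683 to 128128160, plus strand) is named Gm49368 in GENCODE release M21. The transcript of Itgam taken here and that of Gm49368 each have 30 exons, and 28 of these have the same coordinates. Of the 4803 exon bases of Gm49368, 71.8% lie in exons of Itgam. The transcripts part at exon 30, which in Itgam spans 128117306 to 128118490 and encodes the tail of the chain inside the cell. In Gm49368 exon 30 spans 128126808 to 128128160 and holds the processed pseudogene Gm45700. The lines below give 30 coding bases of the shared exon before it in lower case and the first 69 coding bases of each exon 30 in capitals.
Itgam transcript: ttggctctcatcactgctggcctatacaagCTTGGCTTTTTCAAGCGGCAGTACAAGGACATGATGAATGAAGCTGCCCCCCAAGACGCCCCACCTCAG
Gm49368 transcript: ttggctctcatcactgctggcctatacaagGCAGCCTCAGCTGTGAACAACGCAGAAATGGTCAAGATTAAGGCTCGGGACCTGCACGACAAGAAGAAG

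The promoter that both rows share is printed from RefSeq (build GRCm38.p6, chr7:128062390-128062689, plus strand), with matches to GAGGAA, the core letters of sites of the myeloid factor PU.1, on either strand in capitals. RefSeq promoters were found for Itgam, Itga4, Itgav, Itgb1 and Itgb7 among the 10 genes. GAGGAA also matched at 2 places in the Itgav promoter and at 1 each in those of Itgb1 and Itgb7, but at 0 in that of Itga4.
Itgam: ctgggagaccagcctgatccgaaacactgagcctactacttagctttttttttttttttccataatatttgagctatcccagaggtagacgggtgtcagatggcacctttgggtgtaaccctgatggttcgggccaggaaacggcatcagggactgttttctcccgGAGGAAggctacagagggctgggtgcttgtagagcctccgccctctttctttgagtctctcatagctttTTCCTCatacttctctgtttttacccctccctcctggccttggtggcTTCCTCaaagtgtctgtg
The window held 3 matches, which do not overlap, and 28.3% of all RefSeq promoters of the same 300 bases hold at least 1. It held no match to the interferon response element, present in 3.44% of promoters, or to the E-box CAGGTG, present in 20.2%, on either strand. A match describes letters and does not show binding.

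The 10 transcripts differed widely in level. Itgb1 had the highest level per length, at 6766 ± 267 normalized counts per kilobase of exon (SD over 6 libraries). Itgb2 (1657 ± 79.0) and Itga4 (1649.7 ± 133) came next among the 10 and overlapped in range. Itgb7 (1266 ± 51.2) and Itgal (704 ± 82.0) followed, each below the lowest library of the gene before it. Itgb3 (189 ± 41.7), Itgam (166 ± 55.7) and Itgav (69.8 ± 8.50) lay lower. The range of Itgam overlapped both neighbours, that of Itgav only through R837 replicate 1 (55.4). With the Gm49368 row added Itgam came to 198, above Itgb3, so its place depends on how the rows are read. Itgae (38.5 ± 8.97) and Itga6 (20.6 ± 6.18) were the lowest, with ranges that overlapped. The place of Itga4 depends on the length used, since per kilobase of its longest transcript its level was 2361 against 1703 for Itgb2.

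**Figure D1:**
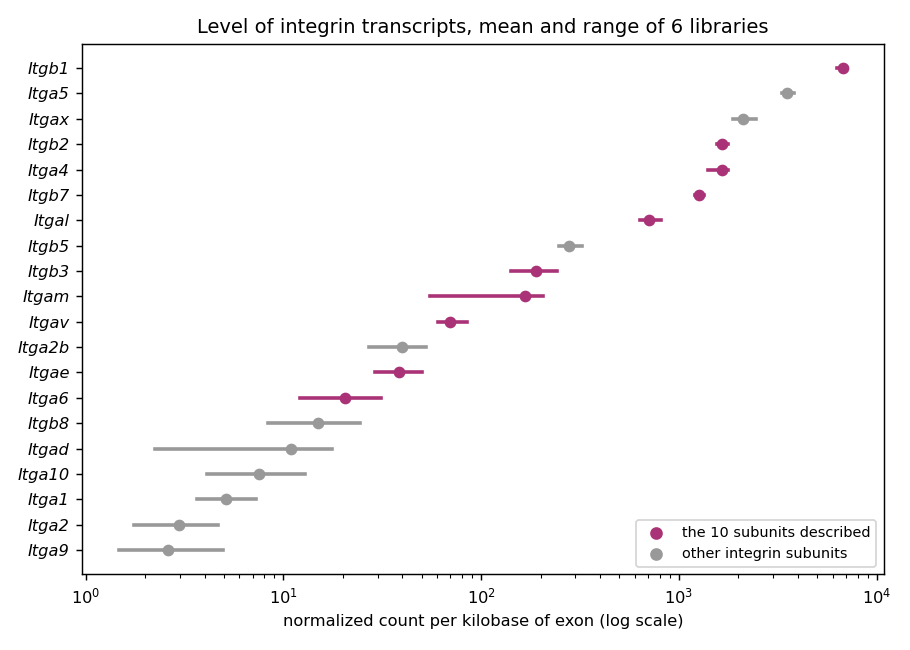
Mean (point) and range (line) over 6 libraries of the normalized count per kilobase of exon, on a log axis, for integrin subunits above 1 in every library. Itgb1 stands highest at 6766 and Itga6 lowest of the 10 subunits described at 20.6.

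Of the 10 transcripts 1, Itgb3, passed the test, and it fell with taurine. Among all tested genes 6.41% were called, 3.75% as higher and 2.66% as lower. The 95% interval of the change also lay below 0 for Itgal, and it included 0 for the other 8 subunits. The change was below 0 for 7 of the 10 and above 0 for 3 (8 and 2 with overlapping genes added to Itgam, Itga4 and Itgav), with a median of -0.0711 against -0.0114 for all tested genes. The groups of 3 libraries did not overlap for 4 of the 10 (Itgb3, Itgal, Itgb1 and Itgae), where 29.6% of all tested genes did not overlap (15.0% with all taurine libraries below, 14.6% above). Transcript length moved with the groups: across genes, which are not independent, the deviations of a library from the gene means correlated with exon length by a Spearman coefficient of 0.0443 to 0.147 in the R837 libraries and -0.203 to -0.100 in the taurine libraries. Once the trend on exon length and GC content had been taken out of every library, the change was below 0 for 6 of the 10 and the median was -0.0141.

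**Figure D2:**
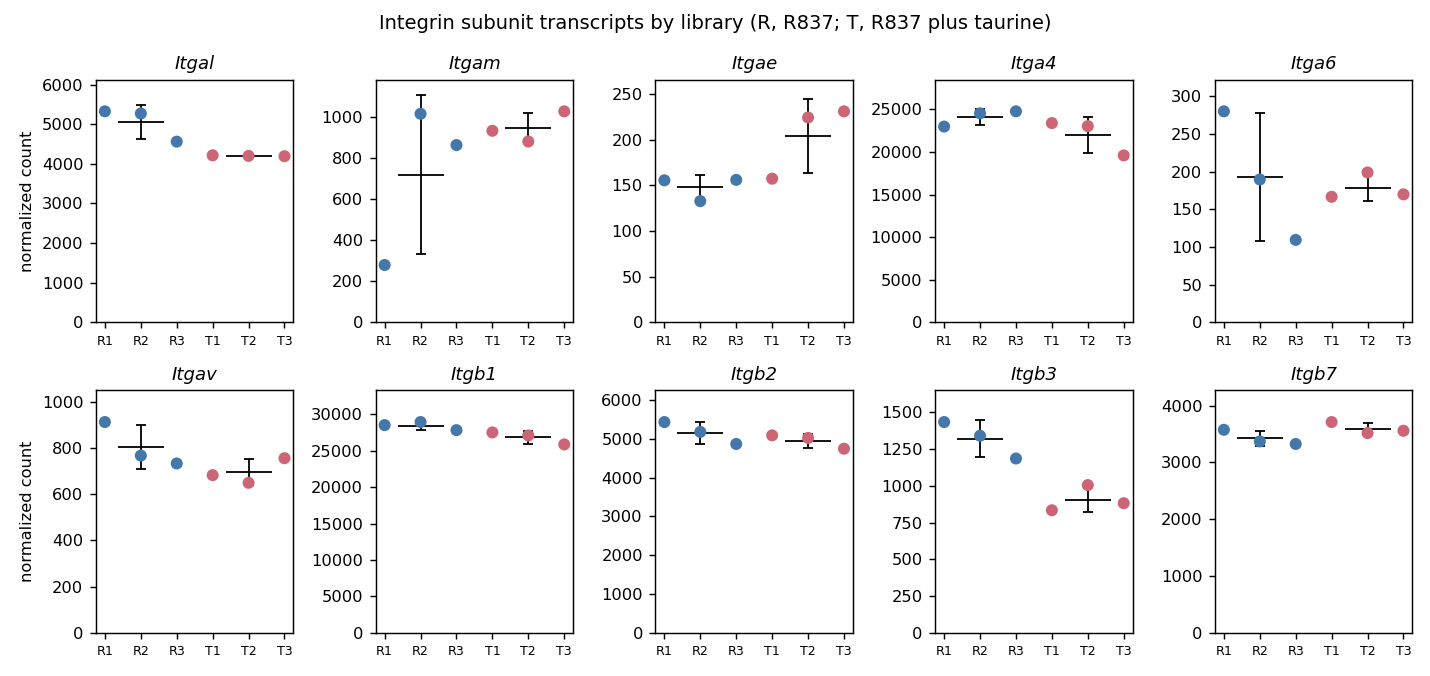
Normalized count of each of the 10 subunits in R837 replicates 1 to 3 (R1 to R3, blue) and R837 plus taurine replicates 1 to 3 (T1 to T3, red), with the mean and SD of each group in black and each axis from 0. The groups separate clearly for Itgb3, while Itgam has 1 low library, R837 replicate 1 at 278.

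Itgb3 (beta3, ENSMUSG00000020689.4, chromosome 11, 104608000 to 104670476, plus strand) pairs with Itgav, and with Itga2b on platelets. The R837 libraries had normalized counts of 1434, 1341 and 1186 for replicates 1 to 3, and the taurine libraries 834, 1005 and 882. Every taurine library lay below every R837 library. The mean went from 1320.3 ± 125 to 907 ± 88.3 (SD, n = 3 libraries a group), a fold of 0.687 (log2 change -0.54 ± 0.12 (SE), adjusted p = 0.0332, limma). The change was -0.54 also with the length and GC trend removed. The call depended on single libraries: it held in 1 of 6 fits that left out a library, the one without R837 replicate 3 (adjusted p = 0.0216). The limma adjusted p was 0.110, 0.120, 0.0953, 0.0550 and 0.105 without R837 replicate 1, R837 replicate 2 or taurine replicate 1, 2 or 3, with log2 changes of -0.62 to -0.48 over the 6 fits. It was 0.0550 without a filter on low values and 0.120 without the abundance trend in limma's prior, and 0.0323 by edgeR and 0.00175 by DESeq2 on the recovered reads.

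Marker lists of other cell types that carry Itgb3 are given beside this fall. The summed level of 10 platelet and megakaryocyte markers was 96.2 to 127 in the R837 libraries and 61.6 to 109 in the taurine libraries, and 0 of the 4 tested passed. By edgeR and DESeq2 0 passed as well. At an unadjusted limma p under 0.05 there was 1 of the 4, where 3622 of all 15265 tested genes were. Of 6 endothelial markers 3 were tested, and of these Kdr and Cdh5 were called lower (log2 changes -0.45 and -0.49). Among all tested genes 2.66% were called lower. Tie1 and Emcn were listed at 0 in every library, and Tek in all but taurine replicate 1, at 12.1. The summed level was 100147 to 119271 against 83023 to 89060, most of it Kdr. The part of endothelial-type transcripts in the Itgb3 fall was not tested. In bulk samples, fewer cells of a type and less RNA per cell cannot be told apart.

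Itgav, the alpha chain partner of Itgb3 (ENSMUSG00000027087.11, chromosome 2, 83724397 to 83806916, plus strand), had 912, 767 and 733 with R837 and 682, 649 and 756 with taurine. The groups overlapped. The log2 change was -0.20 with a 95% interval of -0.49 to 0.0809 (adjusted p = 0.367, limma), and -0.0391 with the length and GC trend removed. Itga2b, the platelet partner, lay at 147 to 288 with R837 and 222 to 239 with taurine. Together these alpha chains came to 0.508 ± 0.0821 of the Itgb3 level per kilobase in the R837 libraries and 0.702 ± 0.0944 in the taurine libraries (SD, n = 3), with 1 taurine library, replicate 2 at 0.593, below R837 replicate 3 at 0.603.

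By the measure fixed for likeness, the root-mean-square difference of centred log2 values over the 6 libraries, the genes closest to Itgb3 were Nbas (0.0234), Kdm5d (0.0336) and Dlgap5 (0.0482). Being picked for likeness in these same libraries, they had to have log2 changes near that of Itgb3 (-0.53, -0.48 and -0.54). Dlgap5 did not pass (adjusted p = 0.0734, limma).

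Among the chains of the beta2 family, Itgal was lower in every taurine library without passing the test, and Itgb2 differed less. Itgal (alphaL, ENSMUSG00000030830.18, chromosome 7, 127296260 to 127335138, plus strand) forms LFA-1, the receptor for ICAM1 that holds dendritic cells and T cells together. Its normalized count was 5324, 5270.3 and 4559 with R837 and 4213, 4199 and 4191 with taurine, so the taurine libraries lay close together below all R837 libraries. The log2 change was -0.26 ± 0.08 (SE), with a 95% interval of -0.45 to -0.0774 and an adjusted p of 0.0915 (limma). It passed without R837 replicate 3 (log2 change -0.33, adjusted p = 0.0245) and by DESeq2 (adjusted p = 0.0395), and stayed at -0.26 with the length and GC trend removed.

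Itgb2 (beta2, CD18, ENSMUSG00000000290.13, chromosome 10, 77530252 to 77565708, plus strand) had 5434, 5179.8 and 4868 with R837 and 5090.4, 5024 and 4747 with taurine. The groups overlapped, and the log2 change was -0.0582 with a 95% interval of -0.23 to 0.11 (adjusted p = 0.687). Itgax (CD11c), a partner of Itgb2 outside the 10 genes, had 10351 to 11769 with R837 and 8978 to 9428 with taurine (log2 change -0.28, adjusted p = 0.0501), just outside the threshold. Itgax was called under 10 of 20 alternatives, among them removal of the length and GC trend (adjusted p = 0.0294), and 1 of its 6 fits with a library left out. For the shares that follow, the Gm49368 row was added to Itgam, a choice made after seeing the data. Per kilobase, Itgax made up 70.1% ± 0.271 of the 4 alpha chains of Itgb2 in R837 libraries and 69.6% ± 0.623 in taurine libraries (SD, n = 3). Itgal made up 23.2% ± 0.641 and 23.3% ± 0.445. The alpha chains together were 1.96 ± 0.0831 times the Itgb2 level in R837 libraries and 1.69 ± 0.0748 times in taurine libraries, without overlap. With the Itgam row alone, the Itgax share was 71.5% ± 1.25 and 69.6% ± 0.625, and the ratio 1.92 ± 0.111 and 1.69 ± 0.0748. These ratios are descriptions with no test.

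Conventional dendritic cells also carry Itgal, Itgax and Itgae. Of 8 genes listed as markers of that cell type Flt3 and Clec9a were called lower and 0 higher, where 2.66% of all tested genes were called lower. Bulk counts do not show which cells these reads came from. Flt3 lay at 1774 normalized counts per kilobase of exon over the 6 libraries, and Xcr1 at 10.6. The median log2 change of the 8 was -0.26. Zbtb46 alone had a change above 0 (0.12), and Xcr1, scarce at means of 47.8 and 46.85, had -0.000933. The 8 listed genes summed to 27830 to 28544 with R837 and 22700 to 24776 with taurine, most of it Flt3 and Sirpa. The part of conventional dendritic cells in the Itgal and Itgax values was not tested.

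**Figure D3:**
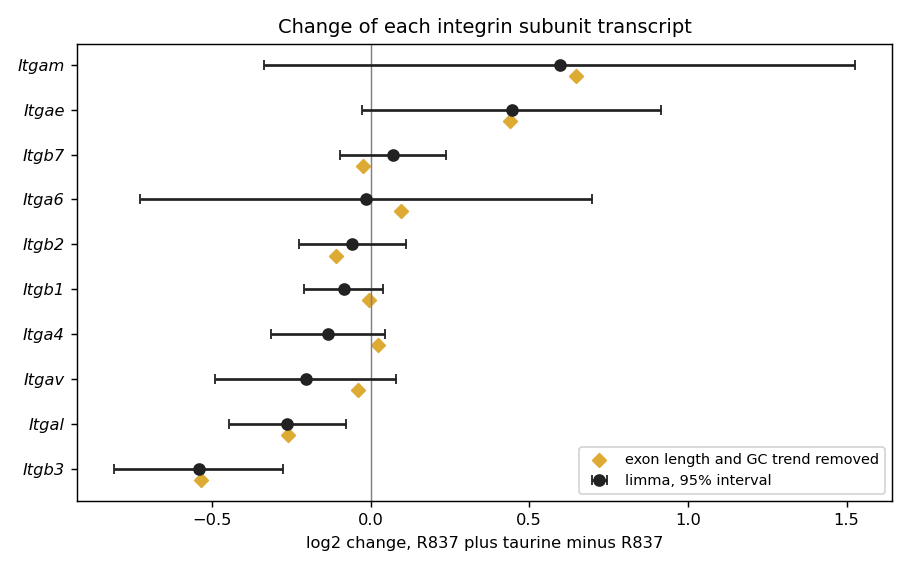
Log2 change of each subunit with its 95% interval (black) and the change after the exon length and GC trend was taken out (yellow diamonds). Itgb3 at -0.54 and Itgal at -0.26 keep their values, while Itgav moves from -0.20 to -0.0391 and Itga4 from -0.13 to 0.0245.

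Itgam (alphaM, CD11b), the Mac-1 chain of myeloid cells, is uncertain when read from its own row alone. That row held 278, 1016 and 863 with R837 and 933, 880.5 and 1028 with taurine, so R837 replicate 1 stood far below the other libraries. Gm49368, which shares most of its exons with Itgam, held 775, 116 and 122 reads in the R837 libraries, against 1, 1 and 0 in the taurine libraries. In R837 replicate 1 the Gm49368 row took 72.4% of the summed level of both rows, and in the other R837 libraries 9.91% and 12.8%. The sum of both rows was 1009.5, 1127 and 990.1 with R837 and 934, 881 and 1028 with taurine, and these groups overlapped.

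The tests follow this split. The Itgam row had a log2 change of 0.60 (95% interval -0.34 to 1.53, adjusted p = 0.421), and 0.0135 without R837 replicate 1. The Gm49368 row was called lower (adjusted p = 0.00443, limma), with a fitted log2 change of -7.12 that depends on the pseudocount and is no measure of fold. Gm49368 passed the filter only through the R837 libraries, so it had to differ between the groups, and its call is not counted beside that of Itgb3. The summed rows had a log2 change of -0.14 ± 0.11 (SE, adjusted p = 0.485). The nearest genes to the Gm49368 row were Fosb (2.10), Zfp248 (2.19) and Hemgn (2.32), all far from it by the same measure. Which exon the reads of a row fell on was not analysed here, so misassigned reads and a separate Gm49368 transcript cannot be told apart. Of 12 monocyte and macrophage markers 0 passed limma or edgeR and 2 passed DESeq2, which called 1808 genes in all. An unadjusted limma p under 0.05 was found for 3 of the 12, and for 3622 of all 15265 tested genes. The median log2 change of the 12 markers was 0.11. Their summed level was 15152 to 16748 with R837 and 16285 to 19030.2 with taurine. Of the 8 tested neutrophil markers 1, Ngp, was called, as higher, where 3.75% of all tested genes were. The median log2 change of the 8 was 0.23, with Camp (-0.57) and Ltf (-0.10) below 0 and the rest above. The 10 neutrophil markers summed to 1181 to 1760 in R837 libraries and 1751 to 2136 in taurine libraries. Their part in the Itgam values was not tested.

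**Figure D4:**
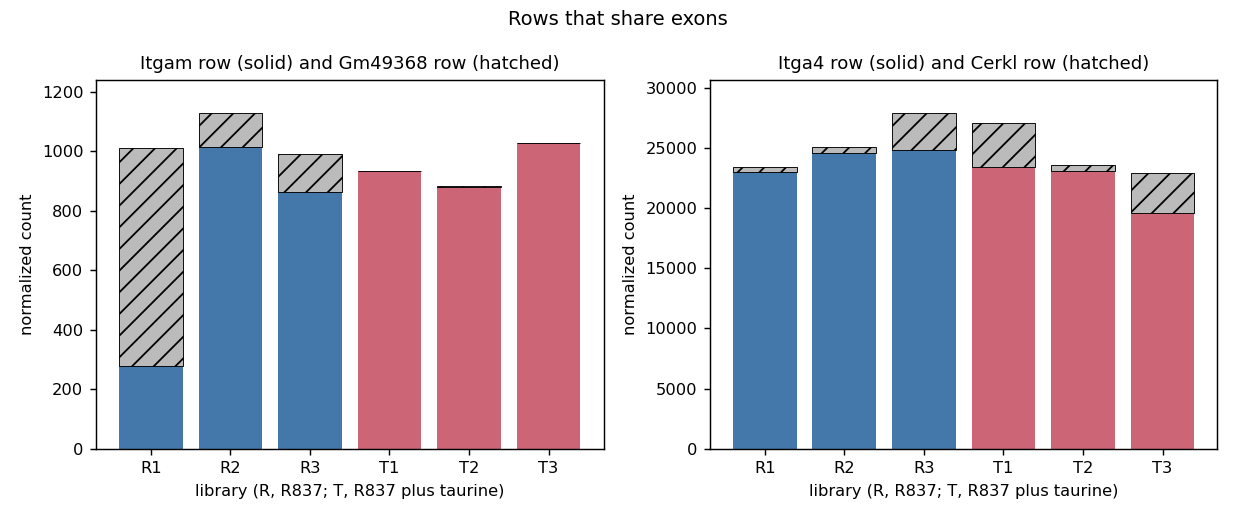
Normalized count per library of the Itgam row and the Gm49368 row (left) and of the Itga4 row and the Cerkl row (right), stacked from 0, with R1 to R3 for R837 and T1 to T3 for R837 plus taurine. The hatched Gm49368 part takes 72.4% of the bar in R1 and at most 0.108% in the taurine libraries, and the Cerkl part is large in R3, T1 and T3.

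Of the chains that bind VCAM1, fibronectin and MADCAM1, Itga4, Itgb1 and Itgb7 were abundant and none passed. Itga4 (alpha4, ENSMUSG00000027009.18, chromosome 2, 79255426 to 79333123, plus strand) had 22990, 24546 and 24779 with R837 and 23398, 23042 and 19597 with taurine. Taurine replicate 3 was the lowest, and the groups overlapped. The log2 change was -0.13 with a 95% interval of -0.31 to 0.0448 (adjusted p = 0.344), -0.0532 without taurine replicate 3 and 0.0245 with the length and GC trend removed.

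The 3′ part of the Itga4 row overlaps another gene. Cerkl, on the opposite strand, shares 1124 bases with the exons of Itga4, which is 8.04% of them. Cerkl held 452, 498 and 3085 with R837 and 3679, 541 and 3297 with taurine, so it was high in R837 replicate 3 and taurine replicates 1 and 3 and low in the other 3, across both groups. With Cerkl added, Itga4 had a mean of 25450 ± 2239 in R837 libraries and 24518 ± 2243 in taurine libraries (SD, n = 3; log2 change -0.0540, adjusted p = 0.757). The strand setting of the counting is not given in the sources used here, so reads on the shared bases cannot be told apart.

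Itgb1 (beta1, CD29, ENSMUSG00000025809.15, chromosome 8, 128685654 to 128733200, plus strand), the shared partner of many alpha chains, had 28501, 28922 and 27813 with R837 and 27499, 27083 and 25852 with taurine. The taurine libraries lay below the R837 libraries by a narrow margin. The log2 change was -0.0840 with a 95% interval of -0.21 to 0.0405 (adjusted p = 0.396), and -0.00522 with the length and GC trend removed. Itga5, the fibronectin receptor chain that pairs with Itgb1 and the most abundant alpha chain per kilobase (3535 ± 173 over 6 libraries), had a log2 change of 0.00758 (95% interval -0.15 to 0.16).

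Itgb7 (beta7, ENSMUSG00000001281.9, chromosome 15, 102215995 to 102231935, minus strand) had 3573, 3368 and 3323 with R837 and 3709, 3515 and 3556 with taurine. The groups overlapped, with a log2 change of 0.0711 and a 95% interval of -0.0960 to 0.24 (adjusted p = 0.610). Itgae (alphaE, CD103, ENSMUSG00000005947.11, chromosome 11, 73090583 to 73147446, plus strand), its E-cadherin-binding partner, was scarce, with 156, 133 and 156 with R837 and 157, 225 and 231 with taurine. Every taurine library lay above every R837 library, but taurine replicate 1 exceeded the highest R837 library only slightly. The log2 change was 0.44 ± 0.21 (SE), with a 95% interval of -0.0265 to 0.92 (adjusted p = 0.236). Per kilobase, Itgae made up 1.85% ± 0.203 of the sum of Itga4 and Itgae in R837 libraries and 2.79% ± 0.737 in taurine libraries (SD, n = 3), and taurine replicate 1 (2.01%) lay within the R837 range.

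Itga6 (alpha6, ENSMUSG00000027111.15, chromosome 2, 71745616 to 71858416, plus strand), the laminin receptor chain, was the least abundant of the 10 per length. It had 280, 190 and 109 with R837 and 167, 199 and 170 with taurine, so the R837 libraries held both the highest and the lowest value. The log2 change was -0.0157 with a 95% interval of -0.73 to 0.70 (adjusted p = 0.985), and it was 0.30 without R837 replicate 1 and -0.37 without R837 replicate 3. No difference was detectable at this spread.

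**Figure D5:**
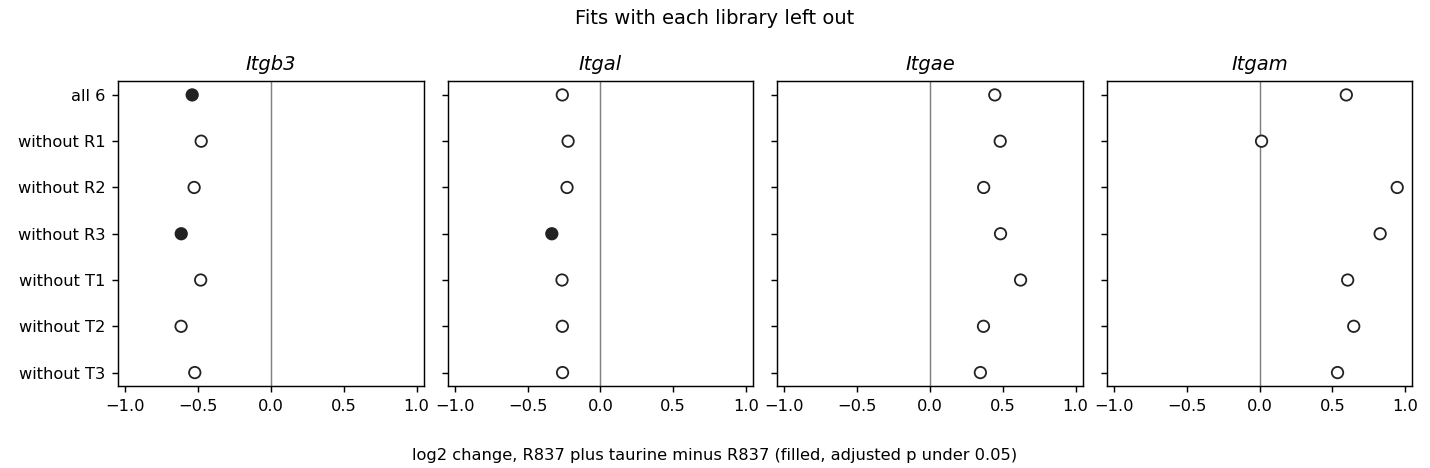
Log2 change of Itgb3, Itgal, Itgae and Itgam with all 6 libraries and with each library left out (R1 to R3, R837; T1 to T3, R837 plus taurine), filled where the limma adjusted p was under 0.05. Itgb3 is filled with all libraries and without R3, Itgal only without R3, and Itgam drops to 0.0135 without R1.

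Among the other integrin subunits the test called none by limma. Of 17 further subunit genes 11 were tested and 0 passed limma, while Itgax passed by edgeR (adjusted p = 0.0492) and DESeq2 (adjusted p = 0.0106). At an unadjusted limma p under 0.05 there were 2 of the 11, Itgax and Itga3, where 3622 of all 15265 tested genes were. Itga5, Itgax and Itgb5 were the most abundant of the 17 per kilobase. Itgb5 had a mean of 949 ± 85.4 in R837 libraries and 1037 ± 99.9 in taurine libraries (SD, n = 3). Itga11 was listed at 0 in every library.

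Of 23 tested ligands 1 was called higher and 2 lower, against 6.41% of all tested genes in either direction, and 20 did not pass. Their median log2 change was 0.0219. Fn1, fibronectin, the ligand of Itga4 and Itga5 receptors, fell from 1547 ± 26.3 to 1118 ± 77.1 (log2 change -0.47, adjusted p = 0.0248). Emilin1, a matrix glycoprotein that binds Itga4 with Itgb1, fell from 251 ± 13.8 to 144 ± 20.4 (log2 change -0.81, adjusted p = 0.0343). Icam5, a ligand of LFA-1, rose from 321 ± 42.7 to 502 ± 22.7 (log2 change 0.65, adjusted p = 0.0341), but 26.8% of its exon bases overlap the antisense gene Gm26592, so its reads are uncertain. Icam1, the main ligand of LFA-1, was abundant, with 23699 ± 1531 and 25062 ± 126 (log2 change 0.0826, adjusted p = 0.467). Vcam1, with 117 ± 5.33 and 209 ± 58.5, and Spp1, osteopontin, with 723 ± 61.6 and 886 ± 72.3, did not pass (adjusted p = 0.0734 and 0.172), but Vcam1 passed by DESeq2 (log2 change 0.83, adjusted p = 0.0372). Leaving out 1 library at a time, the call held in 1 of 6 fits for Fn1 and Icam5 and in 0 for Emilin1.

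Of the 19 tested activators 0 passed limma or edgeR and 2 passed DESeq2, Vasp and Rasgrp3, where DESeq2 called 1808 genes in all. Of these 19, 4 had an unadjusted limma p under 0.05, as had 3622 of all 15265 tested genes. The median log2 change of the 19 was -0.0445. Tln1, talin, which switches integrins on from inside the cell, had 73481 ± 4021 with R837 and 67103 ± 2276 with taurine (log2 change -0.13, adjusted p = 0.220). The kindlin gene of blood cells, Fermt3, had a log2 change of -0.0445 (adjusted p = 0.829). The GTPase gene Rap1b and its activator Rasgrp2 had 0.12 and -0.12 (adjusted p = 0.426 and 0.619). Of the 10 tested brakes 2 rose and 1 fell, where 3.75% of all tested genes were called higher and 2.66% lower. The adaptor genes Dok1, whose product competes with talin for the beta tail, and Dok2 rose by 0.54 and 0.58 (adjusted p = 0.0216 and 0.0427). Rap1gap2, which switches RAP1 off, fell by 0.49 on the log2 scale (adjusted p = 0.0440). With 1 library left out, the call held in 2 of 6 fits for Dok1 and in 1 for Dok2 and Rap1gap2. The Dok2 call was also lost with the length and GC trend removed (log2 change 0.49, adjusted p = 0.0546), and that of Rap1gap2 under quantile normalization (adjusted p = 0.0560).

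Of 35 tested genes of adhesion complexes and their kinases 2 rose and 3 fell, with a median log2 change of -0.0144. Among all tested genes 3.75% were called higher and 2.66% lower. Actn1, the actin crosslinker alpha-actinin, rose from 8160.2 ± 1061 to 13316 ± 798 (log2 change 0.71, adjusted p = 0.00787), and Lpxn, the paxillin relative leupaxin, from 1388 ± 135 to 2000.2 ± 165 (log2 change 0.53, adjusted p = 0.0261). The kinase genes Syk and Fyn fell by 0.31 and 0.35 on the log2 scale (adjusted p = 0.0239 and 0.0345). Ptk2, focal adhesion kinase, fell from 691 ± 32.8 to 417 ± 109 (log2 change -0.76, adjusted p = 0.0464) and is named after its value was seen. This call was lost with the length and GC trend removed (log2 change -0.59, adjusted p = 0.0996), under quantile normalization (0.0544) and by edgeR (0.0549), and it held under 8 of 20 alternatives. Its relative Ptk2b had a log2 change of 0.20 (adjusted p = 0.0926). Ilk had 0.18 (adjusted p = 0.360), with 76.7% of its exon bases overlapping Taf10. Actn1 kept its call in 6 of 6 fits with a library left out, Lpxn in 2, and Syk, Fyn and Ptk2 in 1 each.

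Of 13 membrane partners and traffic genes 1 rose, where 3.75% of all tested genes were called higher. Cd63, a tetraspanin of late endosomes, went from 1102 ± 119 to 2012 ± 66.3 (log2 change 0.87, adjusted p = 0.00509) and kept its call in 6 of 6 fits with a library left out. Cd47, which associates with Itgav and Itgb3 in the membrane, had 18248 ± 624 and 19010.4 ± 662 (log2 change 0.0590, adjusted p = 0.599).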

How the data were processed

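The deposited signal is 1 normalized count for each gene in each library, as the authors name it per the file headers. These are whole reads over a size factor of 0.942 to 1.06: 100% of values gave whole reads to within 0.001. The submitters' processing notes name HISAT2, StringTie, mm8 and mm10. For the counting tool and its strand setting, not given in the sources used here, no assumption was made. Among 52403 identifiers shared with GENCODE M21 (mm10), 95.2% had the same coordinates.

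Genes that reached 10 normalized counts in 3 or more libraries were fitted with limma 3.58.1 (R 4.3.3, abundance trend, two-sided) on log2(normalized count + 1), with Benjamini-Hochberg adjustment. The authors' normalization was kept. The script was tested on simulated data. Alternatives used edgeR 4.0.16 and DESeq2 1.42.0 on recovered reads, other scalings, filters and pseudocounts, a replicate block and leaving out each library. The counts with overlapping genes added were chosen after seeing the data. The members and lists were chosen with earlier results of these data known. Named were all 10 members, up to 4 called genes per pathway list by p, and 11 fixed genes. No pair of libraries within a group agreed within sampling noise.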

Additional observations from a re-analysis of the deposited data

How the results depend on the processing

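Itgb3 kept its sign under all 20 alternatives and its call under 11. The number of genes called was 979 and became 547 without a filter on low values, 4 without the abundance trend, 1808 by DESeq2, and 130 to 1503 with a library left out (130 without R837 replicate 2 and 1503 without R837 replicate 3). Of the rows with a member symbol 2 were called, Itgb3 and Gm49368, the latter able to pass the filter only through the R837 libraries. Without the filter the count was 1, Gm49368 (adjusted p = 0.0151, limma), and Itgb3 was lost. It was 0 without the abundance trend. With overlapping genes added it was 1, Itgb3, since Gm49368 was then part of Itgam. With a library left out it was 0 to 2, the 2 being Itgal and Itgb3 without R837 replicate 3. Of the pathway genes 12 were called, 6 without the filter, 0 without the trend, 19 by DESeq2 and 2 to 17 with a library left out. Library totals that left out the 50 most abundant genes gave 462 calls up and 585 down, against 573 and 406. With the replicate block, 615 genes, 1 member row (Gm49368, which passed the filter only through the R837 libraries) and 5 pathway genes were called. With the block and the exon length and GC trend removed these were 549, 1 (again Gm49368) and 7. The replicate numbers share no stated source, and deviations of libraries with the same number correlated by -0.0434 to -0.00264, so they are not taken as pairs.

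The sign turned for some changes that did not pass. With the length and GC trend removed, with or without the replicate block, the log2 change was 0.0245 for Itga4, 0.0958 for Itga6, -0.0230 for Itgb7, -0.0513 for Itga5 and 0.00123 for Rasgrp2. Under quantile normalization it was 0.0119 for Itga6, -0.0823 for Itga5, -0.0190 for Icam1 and -0.0134 for Cd47, and with totals taken without the 50 most abundant genes -0.0263 for Itga5. With a library left out it ran from -0.37 to 0.30 for Itga6, from -0.0327 to 0.0657 for Itga5 and from -0.0912 to 0.0287 for Fermt3. With overlapping genes added Itgam had -0.14. For these results the cause was not tested. Levels by RefSeq protein length were not run.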
